A study of Mus musculus with 9 samples.

Results

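The receptors for serotonin, for noradrenaline and adrenaline, for dopamine and, of the muscarinic type, for acetylcholine were examined in the mouse spinal cord after contusion. The genes were taken by symbol, as the protein-coding genes whose symbols are Htr, Adra, Adrb, Drd or Chrm followed by the number and letter of a receptor subtype. This group of genes was chosen with earlier results of these data known. Of 52550 genes in a table of read counts, 33 met this rule, of which 14 encode serotonin, 9 adrenergic, 5 dopamine and 5 muscarinic receptors. Polyadenylated RNA of the cord was sequenced in 9 adult female C57BL/6N mice, with 3 mice in each of the groups Sham, SCI and SCI+FIPI. All groups underwent laminectomy. Sham mice received no contusion, and no injection is described for them. SCI mice received a contusion at T10 and intraperitoneal DMSO as the vehicle. SCI+FIPI mice received the same contusion and FIPI, given intraperitoneally each day until the tissue was taken. In SCI against Sham, contusion and vehicle therefore cannot be told apart. A segment of cord that included the injury epicenter was collected on day 7, and each mouse gave 1 library. FIPI is an inhibitor of phospholipase D, and its full name describes it as a derivative of halopemide, a drug that binds dopamine receptors.

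Serotonin and noradrenaline reach the cord in axons that descend from the brainstem, and dopamine in axons that descend from the hypothalamus, while acetylcholine is released by motor neurons and interneurons of the cord itself. Htr3a and Htr3b encode subunits of a serotonin-gated ion channel, and all other genes of the group encode G protein-coupled receptors. Those coupled to Gs raise cyclic AMP, those coupled to Gi/o lower it and open GIRK potassium channels, and those coupled to Gq/11 activate phospholipase C. In the cord these receptors set the excitability of motor neurons and adjust the passage of pain signals through the dorsal horn. The receptors are made by the cells that receive the transmitter, whereas the enzymes and transporters of the descending axons are made in cell bodies that lie outside the segment.

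Between 20806000 and 24582377 reads were counted per mouse. Counts were compared with edgeR's quasi-likelihood test on all 9 mice, and a gene was called changed at a log2 fold change of at least 0.5 in size and a Benjamini-Hochberg adjusted p under 0.05 over the 18699 genes tested. Levels are given as CPM, the count relative to the scaled size of the library, or, where genes are compared with each other, as FPKM, which also divides by the exonic length of the gene. Of the 33 receptors, 31 had enough counts for the test. Htr3b, with 0 to 6 counts per mouse, and Drd3, with 0 to 10, did not. Of the 31, 8 did not reach the count limit of the test in all mice of every group. All mice of a group reached it in both injured groups for Htr2b, and in Sham alone for Htr1f and Drd1. For Drd4 this held in SCI alone, for Adra2b in SCI+FIPI alone, and for Htr5b, Drd5 and Chrm5 in Sham and SCI+FIPI. Some mice of the other groups reached it too for Drd1 and Drd4 (6 mice each in all), Drd5 (7 mice) and Chrm5 (8 mice). The place of these receptors among the tested genes was thus not independent of where they were high. The tissue label was borne out in the Sham mice by summed levels of 9946 to 11170 CPM for 16 neuron markers and 32400 to 33980 CPM for 6 oligodendrocyte markers. Because whole tissue was sequenced, fewer cells of a type and less RNA per cell cannot be told apart.

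In the Sham cord, receptor mRNA per length was highest for Adra2a, the inhibitory α2A-adrenergic receptor, at 14.1 ± 1.32 FPKM (SD, n = 3). It was followed by Chrm2, the Gi/o-coupled M2 muscarinic receptor, at 10.7 ± 0.705 FPKM and by Htr2c, a Gq/11-coupled serotonin receptor, at 9.46 ± 0.296 FPKM. Drd2, the main inhibitory dopamine receptor, stood at 7.86 ± 0.207 FPKM, the Gs-coupled serotonin receptor Htr7 at 7.07 ± 0.149 FPKM and the Gq/11-coupled Adra1b at 5.81 ± 0.246 FPKM. The mice of these 6 receptors did not overlap with those of the next receptor in the order, whereas from the Htr3a level of 2.18 ± 0.422 FPKM downward most neighbours overlapped and do not differ beyond their spread. Htr2b stood at 0.104 ± 0.0538 FPKM, in position 29 of 33. In the SCI cord Adra2a still led, at 12.5 ± 0.817 FPKM, Htr2b came next at 9.60 ± 0.741 FPKM, and Adra1b followed at 4.96 ± 0.407 FPKM, again without overlap between neighbours. The order by TPM, which scales the values to 1 total in every mouse, was the same in all 3 groups.

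Most of these receptors were lower after contusion with vehicle than in Sham. Against Sham, 19 of the 31 tested receptors were called lower in SCI mice, where 22.5% of all genes tested were called lower. Htr2b was called higher, where 24.4% of all genes were called higher. The median log2 fold change was -0.95 over the receptors and -0.003 over all genes tested. The fall was most even among the serotonin receptors, of which 12 of 13 tested were called lower and 1 higher, with a median of -1.48. These 12 include Htr5b and Htr1f, for which no SCI mouse reached the count limit of the test. Of 9 adrenergic receptors 3 were called lower (median -0.20), of 4 tested dopamine receptors 2 were called lower (median -0.88), and of 5 muscarinic receptors 2 were called lower (median -0.66). All 16 neuron markers were called lower in the same comparison, with log2 fold changes from -1.96 to -0.63 and a median of -1.62.

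**Figure D1:**
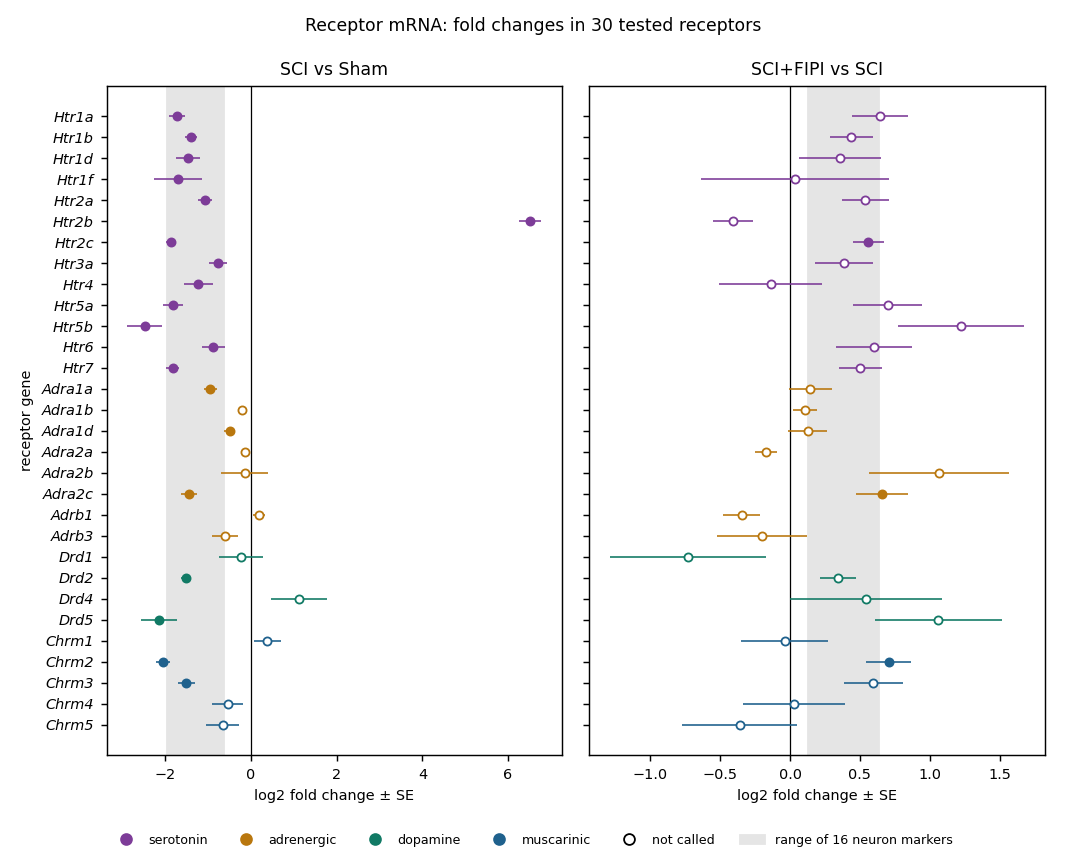
Log2 fold change with its standard error for 30 of the 31 tested receptors in SCI against Sham (left) and SCI+FIPI against SCI (right), coloured by transmitter. Filled points were called changed, and the grey band spans the 16 neuron markers. Htr2b stands alone at 6.52 on the left, and Htr2c, Chrm2 and Adra2c are the filled points on the right.

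Htr2b, a Gq/11-coupled serotonin receptor best known from heart valves, blood vessels and microglia, was nearly absent in the Sham cord and abundant after contusion. Its counts were 3, 8 and 4 in the Sham mice, 526, 512 and 449 in the SCI mice and 436, 345 and 305 in the SCI+FIPI mice. Every injured mouse stood far above every Sham mouse. The pooled ratio of SCI to Sham, corrected for library size, was 93.9, with a 95% interval of 56.8 to 168 that covers counting error only. The fitted log2 fold change was 6.52 ± 0.255 (SE; adjusted p = 1.2e-10), and 11 of the 18699 genes tested had a larger one. Htr2b reached the count limit of the test only in the injured groups, where it was high. Its adjusted p and this rank therefore do not add support. Leaving out any mouse kept the log2 fold change between 6.31 and 7.00. Part of an Htr2b exon, 252 bases or 11.8% of its exonic length, overlaps Psmd1 on the other strand, and whether reads were counted by strand is not given in the sources used here. Psmd1 had 1941, 2080 and 2476 counts in the Sham mice and 1937, 2020 and 1919 in the SCI mice, so its counts did not follow those of Htr2b.

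Markers of several cell types rose beside Htr2b. Of 10 microglia and macrophage markers 9 were called higher in SCI than in Sham, with their summed level going from 408.5 to 557.0 CPM in Sham to 5891 to 7103 CPM in SCI. All 6 fibroblast and meningeal markers were called higher, from 303.5 to 897.7 CPM to 8867 to 12020 CPM. Of 7 endothelial markers 4 were called higher, from 302.1 to 332.3 CPM to 492.5 to 521.2 CPM. So were 4 of 5 oligodendrocyte precursor markers and 3 of 6 tested pericyte and smooth muscle markers. Of all genes tested, 24.4% were called higher. None of the defining markers in these lists was at 0 in all mice. The part of these cells in the Htr2b level was not tested.

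The stretch before the transcription start is shown for Htr2b, the receptor with the largest rise, and for Htr2c and Chrm2, which fell after contusion and were higher with FIPI in every mouse. The sequences are the 250 bases before the RefSeq start on GRCm38.p6, on the strand of the gene, at chr1:86111981-86112230 (minus strand) for Htr2b, chrX:146962263-146962512 (plus strand) for Htr2c and chr6:36387834-36388083 (plus strand) for Chrm2. Capitals in Htr2b and Htr2c mark matches to TGANTCA, a loose form of the AP-1 motif that allows any base at its centre. Both matches read TGAATCA, with A at the centre, where the AP-1 motif proper has C or G. Binding of AP-1 was not tested. Capitals in Chrm2 mark a match to the GC box GGGCGG, here on the other strand.
Htr2b: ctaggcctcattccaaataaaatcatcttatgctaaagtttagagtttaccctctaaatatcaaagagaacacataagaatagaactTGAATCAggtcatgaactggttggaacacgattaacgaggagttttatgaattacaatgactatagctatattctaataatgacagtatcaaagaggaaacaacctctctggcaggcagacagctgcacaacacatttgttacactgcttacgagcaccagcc
Htr2c: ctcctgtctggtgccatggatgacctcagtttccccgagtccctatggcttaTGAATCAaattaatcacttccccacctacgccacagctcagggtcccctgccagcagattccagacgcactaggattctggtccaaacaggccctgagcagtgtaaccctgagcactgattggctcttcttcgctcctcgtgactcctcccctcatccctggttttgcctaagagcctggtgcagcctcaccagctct
Chrm2: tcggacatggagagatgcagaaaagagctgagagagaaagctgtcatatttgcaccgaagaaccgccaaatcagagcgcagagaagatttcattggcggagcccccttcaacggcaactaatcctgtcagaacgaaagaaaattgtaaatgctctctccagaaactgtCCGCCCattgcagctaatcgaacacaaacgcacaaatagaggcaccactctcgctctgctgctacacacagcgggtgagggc
The TGANTCA matches begin at position -163 from the start in Htr2b and at -198 in Htr2c. Of all 32851 RefSeq promoter windows of this length, 6.75% hold TGANTCA on either strand. The GC box begins at -82 in Chrm2, and 32.7% of windows hold it. The same windows were searched on both strands for the CRE TGACGTCA, held by 1.55% of all windows, the PU.1 motif GAGGAAGT, held by 2.44%, and the STAT motif TTCNNNGAA, held by 7.02%. They were searched as well for the E-box CACGTG, held by 6.02%. The TATA box, searched as TATAAA, was held by 12.4% of windows. None of these letters was in the 3 windows printed. RefSeq windows were at hand for 25 of the 33 receptors.

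The other serotonin receptors fell. Htr2c, which on motor neurons raises excitability, had 85.0, 86.8 and 91.1 CPM in the Sham mice and 25.2, 26.3 and 20.3 CPM in the SCI mice, a log2 fold change of -1.87 ± 0.107 (adjusted p = 8.94e-09). Htr7, coupled to Gs, had 24.2, 22.9 and 24.4 CPM in Sham and 8.18, 7.07 and 4.85 CPM in SCI (log2 fold change -1.83 ± 0.147, adjusted p = 6.23e-08). Htr1a, a Gi/o-coupled receptor of motor neurons and interneurons, went from 12.98, 12.01 and 14.25 CPM to 4.57, 4.55 and 2.70 CPM (log2 fold change -1.73 ± 0.196, adjusted p = 2.77e-06). In each of these 3 receptors every SCI mouse stood below every Sham mouse, as in 6542 of all 18699 genes tested.

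Among the serotonin receptors the fall was largest on the log2 scale for Htr5b, a Gi/o-coupled receptor of few counts, with 17, 24 and 30 counts in Sham and 3, 5 and 5 in SCI (log2 fold change -2.48 ± 0.402, adjusted p = 6.61e-05). Htr5a, its Gi/o-coupled relative, fell by 1.82 on the log2 scale (SE 0.236, adjusted p = 8.35e-06). Among the Gi/o-coupled Htr1 receptors, which include autoreceptors on serotonin and other nerve endings, Htr1b fell by 1.40 (SE 0.147, adjusted p = 7.58e-07), Htr1d by 1.48 (SE 0.278, adjusted p = 0.000273) and Htr1f by 1.70 (SE 0.558, adjusted p = 0.0146). Htr1f had at most 17 counts in any mouse, and its call was lost without Sham replicate 2, SCI replicate 1 or SCI replicate 3, with an adjusted p of up to 0.0558. No SCI mouse reached the count limit of the test for Htr5b or Htr1f, so that their adjusted p-values do not add support.

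Smaller falls were measured in the remaining subtypes. Htr2a, a Gq/11-coupled receptor that promotes motor neuron firing, went from 6.08, 7.08 and 8.11 CPM to 3.69, 3.31 and 3.12 CPM (log2 fold change -1.07 ± 0.167, adjusted p = 4.44e-05). Htr4, coupled to Gs, went from 2.23 ± 0.353 to 0.946 ± 0.349 CPM (SD, n = 3, log2 fold change -1.23 ± 0.335, adjusted p = 0.00474). Htr6, also coupled to Gs, went from 2.55 ± 0.846 to 1.40 ± 0.134 CPM (log2 fold change -0.88 ± 0.27, adjusted p = 0.0103), a call that was lost without Sham replicate 3 (adjusted p = 0.0556). Htr3a, the channel subunit found in a class of interneurons and in sensory fibres, went from 4.51 ± 0.878 to 2.65 ± 0.419 CPM (log2 fold change -0.76 ± 0.206, adjusted p = 0.00444).

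With these changes the make-up of serotonin receptor mRNA turned over. Summed over the 14 genes, it amounted to 29.9 ± 0.742 FPKM in Sham, 19.3 ± 2.25 FPKM in SCI and 21.4 ± 2.16 FPKM in SCI+FIPI mice (SD, n = 3). Htr2c held 31.6% ± 0.309 of the sum in Sham and 13.1% ± 0.690 in SCI, and Htr7 held 23.6% ± 0.737 and 9.98% ± 1.45. Htr2b held 0.347% ± 0.181 in Sham and 49.9% ± 2.10 in SCI. In SCI+FIPI mice the share of Htr2b was 34.1% ± 4.01, with a range of 31.2% to 38.7% that lay below the SCI range of 48.4% to 52.3%. These shares are a description of the summed mRNA and were not tested.

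**Figure D2:**
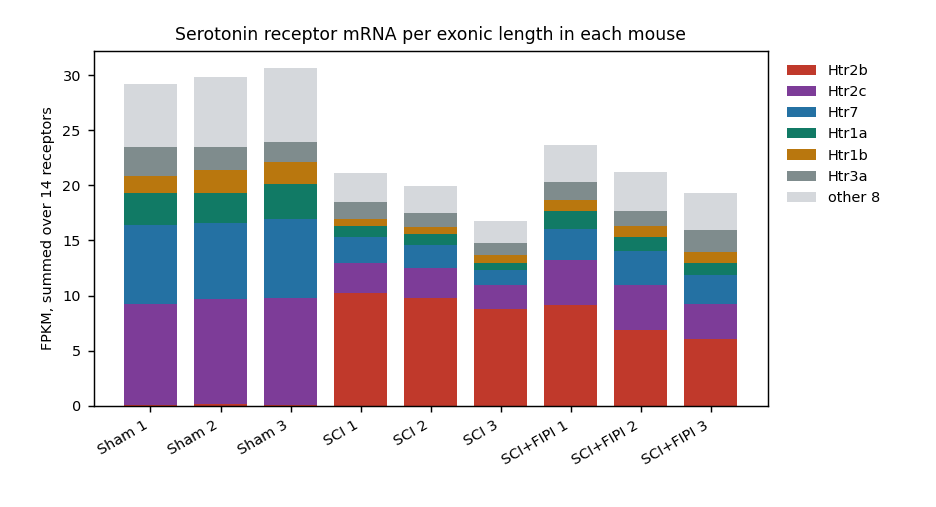
FPKM of the serotonin receptors in each of the 9 mice, stacked by gene, with the 8 genes not drawn singly combined in grey. Htr2b (red) is hardly visible in the Sham mice and makes up 49.9% of the column on average in SCI mice and 34.1% in SCI+FIPI mice.

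Adrenergic receptors were less uniform. Adrb1, the Gs-coupled β1 receptor, had a log2 fold change of 0.18 (adjusted p = 0.248). Adrb3, with 13 to 33 counts per mouse, had one of -0.61 (adjusted p = 0.0859). It was called lower only with offsets for GC content and length, with and without a replicate block. Of the Adrb3 exon bases, 24.9% lie opposite Gm45470. That gene had 40, 41 and 28 counts in Sham, 12, 10 and 12 in SCI and 26, 12 and 24 in SCI+FIPI mice. As the use of strand is not given, its reads may enter the Adrb3 counts, which was not tested.

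Among the α receptors, Adra2c, a Gi/o-coupled autoreceptor and postsynaptic receptor, fell from 13.5, 12.4 and 13.8 CPM to 6.29, 4.34 and 3.88 CPM (log2 fold change -1.45 ± 0.180, adjusted p = 6.33e-06). Adra1a, a Gq/11-coupled receptor, fell from 12.4 ± 2.07 to 6.41 ± 0.888 CPM (log2 fold change -0.95 ± 0.148, adjusted p = 4.71e-05). Adra1d, likewise coupled to Gq/11, had 8.0, 6.31 and 7.44 CPM in Sham and 4.91, 5.46 and 4.98 CPM in SCI mice. Its log2 fold change of -0.50 ± 0.139 (adjusted p = 0.00538) lay on the fold limit, and its call was lost under 13 of 19 alternatives: without Sham replicate 1 or 3, SCI replicate 1 or 3 or any SCI+FIPI mouse, and under limma-voom, both other filters, the GC and length offsets with and without the block, and the fit of these groups alone.

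The abundant Adra2a, the target of clonidine in the dorsal horn, had 65.2, 62.4 and 75.9 CPM in Sham and 56.4, 63.8 and 63.3 CPM in SCI mice, which overlapped (log2 fold change -0.15 ± 0.0754, adjusted p = 0.0966). Adra1b had a log2 fold change of -0.20 ± 0.0883 (adjusted p = 0.0597). Adra2b, with 2 to 15 counts per mouse, had one of -0.15 ± 0.555 (adjusted p = 0.827). None of these 3 was called. Summed adrenergic receptor mRNA was 32.2 ± 1.69 FPKM in Sham and 26.4 ± 0.383 FPKM in SCI mice (SD, n = 3), and Adra2a held 43.8% ± 2.05 and 47.2% ± 2.46 of it.

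Of the dopamine receptors, Drd2, which inhibits through Gi/o, carried most of the mRNA. It went from 19.8, 19.2 and 20.7 CPM in Sham to 8.26, 7.07 and 5.53 CPM in SCI mice (log2 fold change -1.51 ± 0.126, adjusted p = 7.03e-08). Drd2 made up 91.2% ± 2.72 of summed dopamine receptor FPKM in Sham and 82.9% ± 4.68 in SCI mice. Drd5, a Gs-coupled receptor, went from 39, 34 and 20 counts to 7, 11 and 4 (log2 fold change -2.15 ± 0.418, adjusted p = 0.000349). Not every SCI mouse reached the count limit of the test for Drd5, so that this adjusted p does not add support. Of its exon bases, 48.6% lie opposite another annotated gene, Gm26560, which had 0 to 4 counts in any mouse. Drd1, with 3 to 21 counts per mouse, had a log2 fold change of -0.24 (adjusted p = 0.7), and Drd4, with 4 to 39, one of 1.13 (adjusted p = 0.142).

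Of the muscarinic receptors, Chrm2, which inhibits through Gi/o and is found on motor neurons and cholinergic endings, went from 63.8, 59.4 and 69.5 CPM in Sham to 19.7, 13.2 and 13.8 CPM in SCI mice (log2 fold change -2.05 ± 0.160, adjusted p = 1.34e-06). Chrm3, coupled to Gq/11, went from 8.96, 11.1 and 12.6 CPM to 5.33, 3.31 and 2.83 CPM (log2 fold change -1.51 ± 0.204, adjusted p = 1.51e-05). In both, every SCI mouse stood below every Sham mouse, as in 6542 of all 18699 genes tested. Summed muscarinic receptor mRNA was 14.8 ± 0.681 FPKM in Sham and 4.81 ± 1.36 FPKM in SCI mice (SD, n = 3), of which Chrm2 held 72.1% ± 4.83 and 53.3% ± 4.31. Chrm1, Chrm4 and Chrm5 were low, with 9 to 69 counts per mouse, and had log2 fold changes of 0.38, -0.55 and -0.66 that did not pass the test (adjusted p = 0.31, 0.191 and 0.138), although Chrm4 was called without SCI replicate 1.

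Because neuron markers fell as well, each receptor was also set against them within each mouse, as its log2 CPM minus the mean log2 CPM of the 16 neuron markers. That mean was 8.71 ± 0.0723 in Sham, 7.23 ± 0.2 in SCI and 7.72 ± 0.0954 in SCI+FIPI mice (SD, n = 3). Relative to it, 14 of the 31 receptors were higher in every SCI mouse than in every Sham mouse, where 88.6% of all genes tested were. A further 4 receptors were lower in every SCI mouse, where 1.49% of all genes were, and 13 overlapped. The 4 were Chrm2 (-0.57), Htr2c (-0.39), Htr7 (-0.36) and Htr1a (-0.26, all on the log2 scale), with an exact permutation p of 0.1 each, the smallest that 3 mice against 3 can give. These values are set against the mean of the markers, whose own log2 fold changes ranged from -1.96 to -0.63. Within that range lay the fold changes of Htr2c (-1.87), Htr7 (-1.83) and Htr1a (-1.73), while that of Chrm2 (-2.05) lay below it.

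The receptors whose mice overlapped included Drd2, at -0.03 on this scale, Chrm3 at -0.04, Adra2c at 0.03, Htr1d at -0.01 and Htr1b at 0.11, which moved as the neuron markers did to within the spread of the mice. Above the markers, among others, stood Htr2b (7.64), Drd4 (2.48), Chrm1 (1.82), Adrb1 (1.67), Adra2a (1.34) and Adra1b (1.29), again with an exact permutation p of 0.1 each. Not every Sham mouse reached the count limit of the test for Htr2b and Drd4, so that their place here adds no support. Adra2a, Adra1b and Adrb1, which were not called on their own, were thus higher relative to the neuron markers in every SCI mouse. So were 88.6% of all genes tested, so that this sets these receptors apart from the markers and not from other genes.

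**Figure D3:**
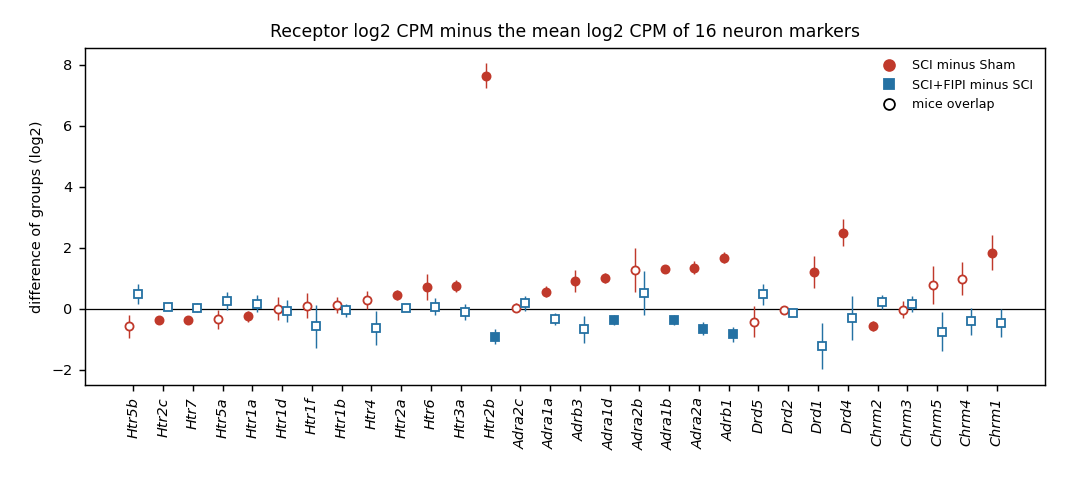
Difference between groups in receptor log2 CPM minus the mean log2 CPM of 16 neuron markers in the same mouse, for 30 receptors, as SCI minus Sham (circles) and SCI+FIPI minus SCI (squares), with the pooled SD of the mice. Filled points mark groups without overlap, and receptors are ordered within each transmitter by the first difference. Htr2b stands at 7.64 for SCI minus Sham, and no filled square lies above 0.

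Genes that make, carry and break down the transmitters changed unevenly between SCI and Sham. Of 17 tested, 3 were called higher, where 24.4% of all genes tested were, and 8 lower, where 22.5% were. The median log2 fold change over the list was -0.61. Slc5a7, the choline transporter of cholinergic endings, went from 69.9 ± 9.50 to 17.6 ± 4.56 CPM (SD, n = 3, log2 fold change -1.99, adjusted p = 1.78e-05), Ache, which breaks down acetylcholine, from 225.3 ± 14.7 to 98.5 ± 14.2 CPM (-1.19, adjusted p = 1.1e-07) and Slc18a3, the vesicular acetylcholine transporter, from 58.3 ± 12.7 to 27.1 ± 8.17 CPM (-1.10, adjusted p = 0.0122). Chat, which makes acetylcholine, was also called lower (-1.04, adjusted p = 0.00815). Maoa and Maob, the monoamine oxidases, had log2 fold changes of -0.08 and -0.19 and were not called.

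Slc6a4, the serotonin transporter, had 4, 6 and 1 counts in Sham and 20, 28 and 12 in SCI mice, a log2 fold change of 2.33 ± 0.539 (adjusted p = 0.00149). Slc6a2, the noradrenaline transporter, had 1, 0 and 0 counts in Sham and 17, 11 and 10 in SCI mice (adjusted p = 0.000183), and no fold is given against so few counts. Both were called higher, at mean levels under 1 CPM in every group. No Sham mouse passed the filter on low counts for either gene. Both were thus tested only through injured mice, where they were high, and their adjusted p-values do not add support. Of the genes that make the monoamines, Tph2 and Dbh were scarce here. Tph2, which makes serotonin in the brain, had 4 to 14 counts per mouse and Dbh, which makes noradrenaline, 0 to 3. Th had 26 to 81 counts and was called lower in SCI than in Sham (log2 fold change -0.97 ± 0.241, adjusted p = 0.00238). Ddc had 261 to 435 counts and was not called (0.22 ± 0.115, adjusted p = 0.11).

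Downstream of the receptors, 3 of 11 G protein α subunits were called higher and 6 lower in SCI than in Sham. Of all genes tested, 24.4% were called higher and 22.5% lower, which is the background for each list named here. Gna15, a Gq-class subunit of blood cells, rose by a log2 fold change of 2.26 ± 0.146 (adjusted p = 5.41e-09), and Gnai2 and Gnai3, which lower cyclic AMP, rose by 1.26 ± 0.0639 (adjusted p = 6.03e-10) and 1.14 ± 0.071 (adjusted p = 3.93e-09). Gnal, Gnaz and Gnai1 had log2 fold changes of -1.63, -1.44 and -1.43. Of 19 second messenger enzymes 4 were called higher and 12 lower. Plcb2 (2.16), Adcy7 (1.89) and Plcb3 (1.39), isoforms of phospholipase C and adenylyl cyclase, led the rises and Plcb4 (-1.47), Adcy1 (-1.44) and Plcb1 (-1.18) the falls. Of 4 GIRK channel genes 3 were called lower, with Kcnj3 at -1.94, Kcnj6 at -1.91 and Kcnj9 at -1.17. Of 7 receptor kinases and arrestins, Arrb2 was called higher (1.13) and Grk3 lower (-0.84).

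FIPI was followed by small differences in the contused cord, upward in most receptors. Against SCI, 3 of the 31 tested receptors were called higher in SCI+FIPI mice, where 2.36% of all genes tested were called higher, and 0 were called lower by edgeR, where 0.695% of all genes were. At an unadjusted p under 0.05 edgeR gave 13 receptors higher and 3 lower. The share of all genes at that limit is not given here, so these counts have no background to be read against. DESeq2 and limma-voom also called 0 lower. The median log2 fold change was 0.36 over the receptors and -0.001 over all genes, and 22 of 31 values were above 0. In 12 receptors every SCI+FIPI mouse stood above every SCI mouse, where 15.7% of all genes did so, and in Adrb1 and Adra2a, among others, every one stood below, where 14.5% did. Of 16 neuron markers 8 were called higher, all 16 values were above 0 and their median was 0.55. By transmitter, the medians were 0.50 for serotonin, 0.11 for adrenergic, 0.44 for dopamine and 0.03 for muscarinic receptors.

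The 3 receptors called were Htr2c, Chrm2 and Adra2c. Htr2c had 25.2, 26.3 and 20.3 CPM in SCI and 38.4, 37.8 and 29.7 CPM in SCI+FIPI mice, without overlap (log2 fold change 0.56 ± 0.108, adjusted p = 0.0103). Chrm2 had 19.7, 13.2 and 13.8 CPM in SCI and 28.74, 26.41 and 21.01 CPM in SCI+FIPI mice, also without overlap (log2 fold change 0.71 ± 0.162, adjusted p = 0.0266). Adra2c had 6.29, 4.34 and 3.88 CPM in SCI and 5.99, 9.03 and 7.89 CPM in SCI+FIPI mice, and the groups overlapped (log2 fold change 0.66 ± 0.184, adjusted p = 0.0389). All 3 remained below Sham, with log2 fold changes of SCI+FIPI against Sham of -1.31 (adjusted p = 3.27e-07), -1.34 (adjusted p = 3.62e-05) and -0.79 (adjusted p = 0.00134).

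These calls rested on single mice. The call of Htr2c was lost without SCI replicate 3, SCI+FIPI replicate 1 or SCI+FIPI replicate 2 (adjusted p up to 0.0578), that of Chrm2 without SCI replicate 2, SCI replicate 3, SCI+FIPI replicate 1 or SCI+FIPI replicate 2 (adjusted p up to 0.125), and that of Adra2c without any one of 7 of the 9 mice (adjusted p up to 0.183). Leaving out single mice gave between 0 receptors called higher, without SCI replicate 3 or SCI+FIPI replicate 2, and 8, without SCI replicate 1.

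**Figure D4:**
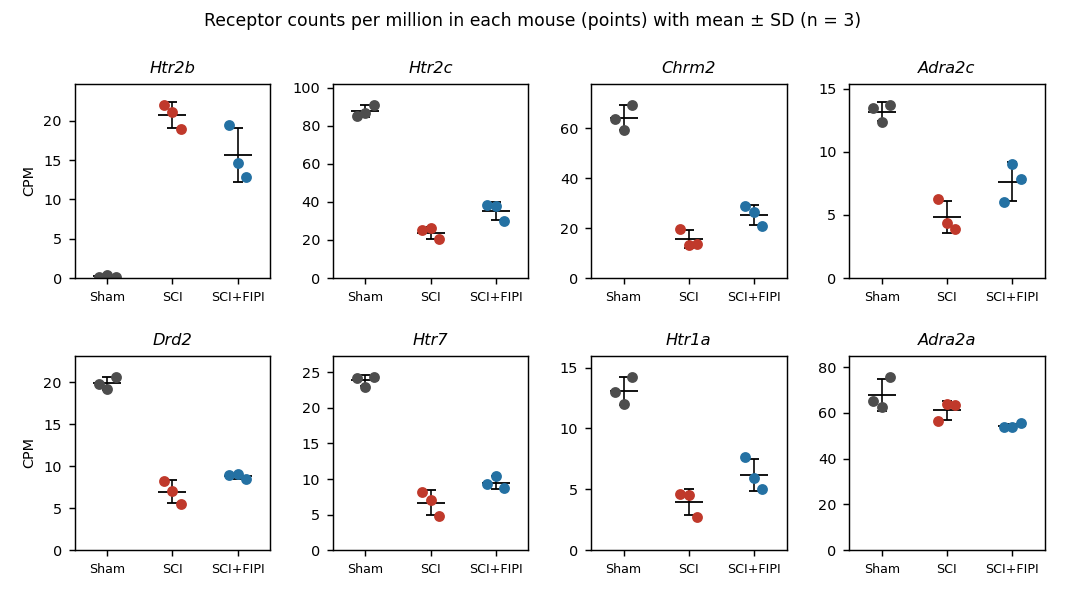
CPM of 8 receptors in each mouse (points), with the mean and SD of the 3 mice of each group as bars. Htr2b is high in both injured groups, Htr2c, Chrm2, Adra2c, Drd2, Htr7 and Htr1a are high in Sham mice, and Adra2a lies between 53.6 and 75.9 CPM in all 9 mice.

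Further receptors were higher in every SCI+FIPI mouse than in every SCI mouse without passing the test. Htr1a went from 3.94 ± 1.07 to 6.18 ± 1.35 CPM (log2 fold change 0.64, adjusted p = 0.0611), Htr7 from 6.70 ± 1.69 to 9.50 ± 0.862 CPM (0.50, adjusted p = 0.0525) and Htr2a from 3.37 ± 0.290 to 4.90 ± 0.743 CPM (0.54, adjusted p = 0.0598). Drd2 went from 6.95 ± 1.37 to 8.83 ± 0.309 CPM (0.34, adjusted p = 0.112) and Chrm3 from 3.82 ± 1.33 to 5.77 ± 0.372 CPM (0.59, adjusted p = 0.0912). The others of this kind were Htr1b, Htr5b, Htr6, Adra2b and Drd5, with log2 fold changes of 0.44 to 1.22. Not every SCI mouse reached the count limit of the test for Adra2b, Htr5b and Drd5, so that these 3 do not add support.

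Htr2b was lower with FIPI by values that did not pass the test. Its levels were 22.1, 21.2 and 18.9 CPM in SCI and 19.5, 14.6 and 12.8 CPM in SCI+FIPI mice, with SCI+FIPI replicate 1 inside the SCI range. The log2 fold change was -0.41 ± 0.144 (adjusted p = 0.0916), and without SCI+FIPI replicate 1 it was -0.60 and was called (adjusted p = 0.0196). The pooled ratio was 0.75, with a 95% counting interval of 0.693 to 0.812. Adrb1 (-0.35, adjusted p = 0.12) and Adra2a (-0.17, adjusted p = 0.171) had every SCI+FIPI mouse below every SCI mouse, and neither was called. In the same comparison 9 of 10 microglia and macrophage markers and 4 of 6 fibroblast and meningeal markers had log2 fold changes below 0, and edgeR called 0 of either list. Below 0 were also all 7 endothelial, 5 of 6 tested pericyte and smooth muscle and 4 of 5 oligodendrocyte precursor markers. Among these, 1 pericyte and smooth muscle marker was called lower. Of all 18699 genes tested, 9407 had values below 0. At an unadjusted p under 0.05, 3 of the microglia and macrophage markers and 0 of the fibroblast and meningeal markers were lower. Their part in the Htr2b level was not tested.

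Set against the neuron markers, which were themselves higher by 0.49 on the log2 scale, 0 of the 31 receptors were higher in every SCI+FIPI mouse than in every SCI mouse, where 0.738% of all genes tested were. In 6 receptors every SCI+FIPI mouse was lower, where 67% of all genes were, and 25 overlapped. They included Htr2b (-0.92), Adrb1 (-0.84), Adra2a (-0.66), Adra1b (-0.39) and Adra1d (-0.37), with an exact permutation p of 0.1 each. Relative to the markers Htr2c differed by 0.07, Chrm2 by 0.22 and Adra2c by 0.17, within the spread of the mice, with exact permutation p-values of 0.7, 0.5 and 0.4.

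Beyond the receptors, 1 of 11 G protein α subunits and 1 of 4 GIRK channel genes were called higher with FIPI, where 2.36% of all genes tested were. With no fold limit, 1130 of all 18699 genes tested were higher and 670 lower at an adjusted p under 0.05. Gnaz, a Gi-class subunit of neurons, went from 17.6 ± 0.655 to 26.7 ± 1.59 CPM (SD, n = 3, log2 fold change 0.60, adjusted p = 0.00156). Kcnj3, which encodes a GIRK subunit of the channels that Gi/o-coupled receptors open, went from 13.6 ± 1.05 to 20.8 ± 1.92 CPM (log2 fold change 0.61, adjusted p = 0.00217). Both fold changes lay within the range of the 16 neuron markers in this comparison, 0.129 to 0.634. Neither gene was set against the markers within each mouse. Of 17 tested transmitter genes, 2 with values above 0 and 1 below had an adjusted p under 0.05 and stayed below the fold limit, among them Slc29a4, a monoamine transporter (0.39, adjusted p = 0.0103), and Ache (0.36, adjusted p = 0.0287). The same was true of 6 of 19 second messenger enzymes, 4 with values above 0 and 2 below, among them Plcb4 (0.50, adjusted p = 0.00205) and Adcy7 (-0.40, adjusted p = 0.0286), and of Arrb2 (-0.30, adjusted p = 0.0106) among 7 receptor kinases and arrestins.

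Treated mice stood near SCI mice when both were compared with Sham, a comparison that shares the Sham mice with the first and the SCI+FIPI mice with the second. In SCI+FIPI mice 18 of 31 receptors were called lower than Sham, where 17% of all genes tested were, and Htr2b and Drd4 were called higher, where 21.2% were. The median log2 fold change was -0.82 over the receptors and -0.003 over all genes. Htr2b was higher by a log2 fold change of 6.11 ± 0.261 (adjusted p = 5.92e-10). As it reached the count limit of the test only in the injured groups, this adjusted p does not add support. Drd4, a Gi/o-coupled dopamine receptor, had 9, 4 and 4 counts in Sham and 10, 39 and 8 in SCI+FIPI mice, which overlapped. Its log2 fold change of 1.67 ± 0.623 (adjusted p = 0.0325) was 0.62 without SCI+FIPI replicate 2 and no longer called (adjusted p = 0.376), and the call was also lost without Sham replicate 2 or 3, with limma-voom and with the GC and length offsets.

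Among the receptors with the firmest calls, Htr7 stood below Sham by a log2 fold change of -1.33 ± 0.142 in SCI+FIPI mice (adjusted p = 1.99e-06), Drd2 by -1.17 ± 0.124 (adjusted p = 1.42e-06) and Htr1b by -0.97 ± 0.143 (adjusted p = 3.79e-05). Htr1a followed at -1.08 (adjusted p = 0.000205), Adra1a at -0.81 (adjusted p = 0.000266), Htr5a at -1.12 (adjusted p = 0.000609) and Chrm3 at -0.92 (adjusted p = 0.00113). Every SCI+FIPI mouse stood below every Sham mouse in these 7 receptors, as in 6150 of all 18699 genes tested. Htr1d (-1.12), Htr4 (-1.37), Htr5b (-1.26), Htr2a (-0.53), Htr1f (-1.67) and Drd5 (-1.09) were called lower at adjusted p-values of 0.00251 to 0.0212. Only Sham mice reached the count limit of the test for Htr1f, so that its adjusted p does not add support. The calls of Htr1f, Htr2a and Drd5 were each lost without single mice, Htr1f without Sham replicate 2 or SCI+FIPI replicate 1 or 2, Htr2a without Sham replicate 3 or SCI+FIPI replicate 3, and Drd5 without Sham replicate 1 or 2 or SCI+FIPI replicate 2 (adjusted p up to 0.076, 0.0566 and 0.11). That of Htr2a was also lost with offsets for GC content and length (adjusted p = 0.0731) and with these and the replicate block (adjusted p = 0.0955).

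Of the 19 receptors called lower in SCI mice, Adra1d (-0.38, adjusted p = 0.03), Htr3a (-0.38, adjusted p = 0.122) and Htr6 (-0.28, adjusted p = 0.377) were not called lower in SCI+FIPI mice against Sham. Adrb3 (-0.82, adjusted p = 0.0334) and Chrm5 (-1.02, adjusted p = 0.0363), a Gq/11-coupled muscarinic receptor, were called lower in SCI+FIPI mice and not in SCI mice. In SCI mice Adrb3 passed only with the GC and length offsets, and the overlap of Adrb3 with Gm45470 applies here too. Both calls were lost without any one of 4 mice, among them Sham replicate 2 and SCI+FIPI replicate 1 in either case (adjusted p up to 0.11 and 0.122). That of Adrb3 was also lost with DESeq2 (adjusted p = 0.0666) and with no filter (adjusted p = 0.0849), and that of Chrm5 with the replicate block (adjusted p = 0.0561). Whether these 5 differed between the injured groups is given by the direct comparison, in which their log2 fold changes of SCI+FIPI against SCI were 0.13, 0.39, 0.60, -0.20 and -0.36 and none passed the test.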

How the data were processed

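RNA of the cord was measured in 9 mice. After trimming of reads, the authors counted them on genes and deposited raw counts for 52550 genes, without normalization. The submitters' processing notes name GRCm38 and R 4.2.3. The aligner, counting program, annotation and use of strand are not given in the sources used here. All 9 columns of counts were used.

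Identifiers were matched to GENCODE M21 (52403 found). R 4.3.3 with edgeR 4.0.16 was used, with TMM factors, filterByExpr by group, robust quasi-likelihood fits with 1 mean per group and no covariate over all 9 mice (6 residual degrees of freedom), and Benjamini-Hochberg adjustment over 18699 genes. The limits on fold and adjusted p come from the study's methods, which name no test. Single values were compared by exact two-sided permutation tests of log2 CPM (prior count 2). Receptor genes of the rule were all accounted for, with statistics for those called in any comparison and for Htr2b. Of the companion lists, the called genes with the 3 largest changes each way and the genes that make or clear the transmitters were named. The receptors, the companion lists and the cell type marker lists were chosen with earlier results of these data known. The steps were tested on simulated data. Alternatives used RLE or upper-quartile factors, DESeq2 1.42.0, limma-voom (limma 3.58.1), other filters and fold limits, a replicate block, offsets for GC content and length, fits of only the groups compared, and each mouse left out. Replicate numbers come from the labels. Same-numbered mice are different animals, and their deviations correlated between -0.073 and 0.108, so the numbers were not taken to pair the mice. Mice of 1 group were set against each other by a chi-square, which came to 6.76 to 13.2 per gene, so each counted as 1 replicate. Nothing says whether mice shared a batch. The values of some genes are counted in the totals and are not reported here. Figures were drawn with matplotlib 3.10.9.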

Additional observations from a re-analysis of the deposited data

How the results depend on the processing

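No receptor called in a comparison changed direction under any alternative. Over 93 log2 fold changes (31 receptors in 3 comparisons) and 1728 values under the alternatives, 1624 kept direction and side of the limits, 61 fell short of the limits, 25 newly passed them and 18 changed sign, all in 7 fold changes that were not called. Receptors called higher in SCI against Sham were 1 with at least 10 counts in every mouse, a filter that drops Htr2b by construction, and 1 in SCI+FIPI against Sham. Against SCI, SCI+FIPI mice had 8 receptors called higher with DESeq2, 7 with no filter and 0 at a log2 fold change of at least 1, and between 0 and 8 with single mice left out, with 0 to 1 called lower (Htr2b, without SCI+FIPI replicate 1). The cause of these shifts was not tested. Of all genes called, SCI against Sham had 5059 at a log2 fold change of at least 1. In SCI+FIPI against SCI all genes called were 1800 with no fold limit, 65 at the larger one and 189 to 1038 with single mice left out, and in SCI+FIPI against Sham 11060 and 3376.

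With the replicate number as a block, 2 receptors in place of 3 were called higher in SCI+FIPI against SCI, where Adra2c lost its call (adjusted p = 0.0713). In SCI+FIPI against Sham, 17 in place of 18 were called lower, where Chrm5 lost its call (adjusted p = 0.0561), and the block alone changed no other receptor call. Of the 9 mice, 4 correlated best with a mouse of their own number. Sign changes in SCI+FIPI against SCI were Chrm1 (0.032 with limma-voom, -0.316 to 0.121 with mice left out), Htr1f (-0.172 with limma-voom, -0.004 with block and offsets, -0.712 to 0.537 with mice left out), Chrm4 (-0.197 to 0.433), Htr4 (-0.411 to 0.16) and Drd4 (-0.51 to 0.914). In SCI against Sham they were Adra2b (-0.616 to 0.266) and Drd1 (-0.686 to 0.084). Receptors of few counts, such as these, are measured with low precision.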
